A study of Mus musculus with 72 samples.

Results

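The 7 enzymes of the pentose phosphate pathway, G6pdx, Pgls, Pgd, Rpia, Rpe, Tkt and Taldo1, were followed as mRNA in 7 count tables from mice conceived by in vitro fertilization (IVF) and from naturally conceived controls (naturals). They are 7 of the 37108 gene symbols of the tables, and each was found in every table. They were chosen by measured values: the level of Pgls was much lower in IVF than in natural F2 male livers and much higher in IVF than in natural F2 female livers, so the differences between IVF and natural livers below are a description and carry no test.

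The series asks whether IVF leaves a mark on the testis of the offspring and on the tissues of the generation after them. The 72 libraries came from 30 F1 testes and 42 F2 tissues. F1 males had CF-1 mothers and SJL/B6 fathers. Natural embryos came from mating, whereas IVF embryos came from superovulated CF-1 eggs, were cultured to the blastocyst and were transferred to pseudopregnant females, so that IVF here includes superovulation, culture and transfer. Fetal testes were taken at E18.5, from 4 naturals and 6 IVF males. Adult F1 males were delivered by C-section, raised by foster dams and sampled at 12 weeks (5 naturals and 5 IVF) or 39 weeks (4 naturals and 6 IVF). F2 animals were offspring of 12-week F1 males mated naturally with wild-type CF-1 females, so "IVF" in F2 describes the conception of the father. They were sampled at 12 weeks and gave testes (5 natural and 7 IVF), ovaries (4 and 5), male livers (5 and 5) and female livers (5 and 6). The labels do not say which F2 animals share a father or a litter, and p-values in F2 therefore measure the spread between these animals only.

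The pathway takes glucose 6-phosphate away from glycolysis. Its oxidative branch makes NADPH, which cells spend on the synthesis of fatty acids, cholesterol and steroids and on keeping glutathione reduced, and leaves ribulose 5-phosphate. Its non-oxidative branch turns that sugar into ribose 5-phosphate for nucleotides or back into intermediates of glycolysis. Liver and steroid-making gonads are known for a high demand for NADPH. G6pdx encodes glucose-6-phosphate dehydrogenase, the rate-limiting entry enzyme. Pgls encodes 6-phosphogluconolactonase, which opens the ring of the lactone made by that enzyme, and Pgd encodes 6-phosphogluconate dehydrogenase, the other NADPH-producing step. Rpia (ribose 5-phosphate isomerase) and Rpe (ribulose-phosphate 3-epimerase) act on the pentose. Tkt (transketolase, which needs thiamine) and Taldo1 (transaldolase) carry carbon units between sugars. The mouse also has G6pd2, a retrogene of G6pdx, and Tktl1 and Tktl2, which are related to Tkt. These were followed as pathway neighbours.

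The genes lie apart in the mm10 genome, in GENCODE M21 models. G6pdx is at chrX:74409483-74429194 on the minus strand with 13 exons, and its whole length, 19712 bases, is overlapped by Ikbkg on the opposite strand. Pgls is at chr8:71592176-71601092 (plus strand, 5 exons), and 3445 bases of its locus are shared with Fam129c on the same strand. Pgd is at chr4:149149991-149166771 (minus, 13 exons), Rpia at chr6:70765720-70792232 (minus, 9 exons) and Rpe at chr1:66700831-66719805 (plus, 6 exons), where 558 bases face Kansl1l. Tkt is at chr14:30548359-30574720 (plus, 14 exons) and holds the 60 bases of Mir3076, and Taldo1 is at chr7:141392199-141402968 (plus, 8 exons). G6pd2, at chr5:61808816-61811163, has 1 exon of 2348 bases. Counts cover the exons of each gene, whether the counting used the strand is not given in the sources used here, and the part of overlapping genes in these counts was not tested. Their transcripts differ in base composition: that of Pgls has 65.4% GC in 893 bases, the shortest of the 7, Pgd 54.2%, Tkt 54.0%, Taldo1 53.7%, G6pdx 52.6%, Rpia 51.9% and Rpe 39.0%.

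The sequences around the start sites of G6pdx and Tkt and of their copies G6pd2 and Tktl2 are shown because these pairs had opposite changes between fetal and adult testis, described after the levels. Each is the RefSeq window on GRCm38.p6 from 250 bases before the start to 50 bases after it, 300 bases in the direction of the gene, at chrX:74428831-74429130 (minus strand), chr5:61808593-61808892, chr14:30548881-30549180 and chr8:66511490-66511789 (plus strand). The windows of G6pdx and Tkt lie wholly inside the GENCODE models given above. The RefSeq start used for each is therefore downstream of the start of that model. Motifs were searched on both strands, the antioxidant response element as TGACNNNGC, the E-box as CACGTG, the GC box as GGGCGG and the CCAAT box. Capitals mark the antioxidant response element in G6pdx, which reads on the minus strand, and the GC boxes in Tkt, read on either strand.

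G6pdx: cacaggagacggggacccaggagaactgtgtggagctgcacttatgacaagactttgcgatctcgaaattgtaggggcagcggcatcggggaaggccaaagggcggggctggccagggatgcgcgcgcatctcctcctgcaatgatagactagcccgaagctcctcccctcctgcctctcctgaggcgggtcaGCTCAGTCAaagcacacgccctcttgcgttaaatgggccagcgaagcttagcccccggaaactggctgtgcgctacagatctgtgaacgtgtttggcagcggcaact

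G6pd2: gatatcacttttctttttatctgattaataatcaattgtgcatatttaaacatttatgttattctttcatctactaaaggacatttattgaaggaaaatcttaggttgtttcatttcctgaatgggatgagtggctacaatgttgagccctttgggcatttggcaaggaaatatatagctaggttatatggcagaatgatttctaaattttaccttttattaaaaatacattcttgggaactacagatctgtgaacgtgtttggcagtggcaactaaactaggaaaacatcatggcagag

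Tkt: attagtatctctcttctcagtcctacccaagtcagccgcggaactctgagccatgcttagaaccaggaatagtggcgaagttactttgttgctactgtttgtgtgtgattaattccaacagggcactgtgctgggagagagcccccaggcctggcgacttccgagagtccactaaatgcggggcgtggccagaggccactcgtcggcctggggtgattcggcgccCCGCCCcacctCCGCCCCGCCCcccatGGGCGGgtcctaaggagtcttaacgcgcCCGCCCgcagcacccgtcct

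Tktl2: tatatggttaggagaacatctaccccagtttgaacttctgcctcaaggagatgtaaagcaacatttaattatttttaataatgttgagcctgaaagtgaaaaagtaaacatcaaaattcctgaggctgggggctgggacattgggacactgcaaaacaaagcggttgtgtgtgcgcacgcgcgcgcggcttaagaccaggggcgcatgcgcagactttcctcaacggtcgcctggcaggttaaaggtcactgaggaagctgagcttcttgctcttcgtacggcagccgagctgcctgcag

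The window of G6pdx had 60% GC and 18 CpG dinucleotides, with 1 antioxidant response element and 1 GC box. That of its retrogene had 32.7% GC, 1 CpG and none of these motifs. The longest run that both windows share is 27 bases, from position 16 to 42 after the start in G6pdx and from -10 to 17 around the start in G6pd2. The window of Tkt had 61.0% GC, 20 CpG and 5 GC boxes, and that of Tktl2 49.7% GC, 14 CpG, no GC box and 1 CCAAT box. Over the 32851 promoter windows of the same length, the median GC content was 52.7% and the median number of CpG was 7. An antioxidant response element was found in 12.4% of those windows, an E-box in 7.15%, a GC box in 35.7% and a CCAAT box in 37.4%. A match describes these letters only.

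Reads were counted per gene, and levels are given as CPM, the count of a gene relative to the TMM-scaled total of its library. Total counts per library ran from 2904727 to 49192804 in gonads and from 543745 to 90441392 in livers. At E18.5 the naturals had fewer counts (2904727 to 4869139) than the IVF males (8500054 to 15745480), and so they had at 39 weeks (11438213 to 12705316 against 14033176 to 23318391). In male livers the order was the other way (10391074 to 44069283 in naturals, 543745 to 12624673 in IVF), and IVF 2 and 3 had only 2137355 and 543745 counts. Ovaries also had more counts in naturals (17372532 to 49192804) than in IVF (11489461 to 16553139), without overlap. Female livers had 3947645 to 34149676 counts in naturals and 13815244 to 90441392 in IVF. The part of depth in the differences below was not tested. Liver markers summed to 78300 to 261000 CPM in all livers and gonad markers were found in the gonads, and 3 natural male livers (1, 4 and 5) also held 1175, 709 and 1300 counts of the spermatid genes Prm1, Prm2, Tnp1 and Tnp2, against 0 to 35 in the other 7. In 1 natural E18.5 testis, hepatocyte markers summed to 628 CPM, against a median of 33.7.

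Compared per kilobase of transcript, so that genes can be set side by side, the members formed different profiles in the 7 tissues of naturals. In ovaries, Taldo1 was the highest member, at 172 ± 14.4 CPM per kilobase (SD, n = 4), followed by Tkt (87.0 ± 11.3), then Pgd (71.7 ± 2.51) and Pgls (69.8 ± 9.89), which did not differ from each other beyond their spread, then G6pdx (37.8 ± 2.43), Rpe (12.5 ± 0.847) and Rpia (9.51 ± 0.659). In E18.5 testes (n = 4), Tkt led with 74.0 ± 2.74 and G6pdx stood at 32.7 ± 3.63. In 12-week testes (n = 5), Pgls led with 47.6 ± 3.17, whereas Tkt was at 9.38 ± 0.992 and G6pdx at 3.72 ± 0.492. F2 testes repeated that order, with Pgls at 34.4 ± 2.98, Tkt at 7.76 ± 0.406 and G6pdx at 3.30 ± 0.314 (n = 5). In male livers (n = 5), Taldo1 was at 85.7 ± 11.8 and Tkt at 50.1 ± 4.78, while G6pdx and Rpia were the lowest members, at 1.14 ± 0.353 and 1.33 ± 0.369. In female livers (n = 5), G6pdx and Rpia were again the lowest, at 1.05 ± 0.909 and 2.13 ± 0.998.

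**Figure D1:**
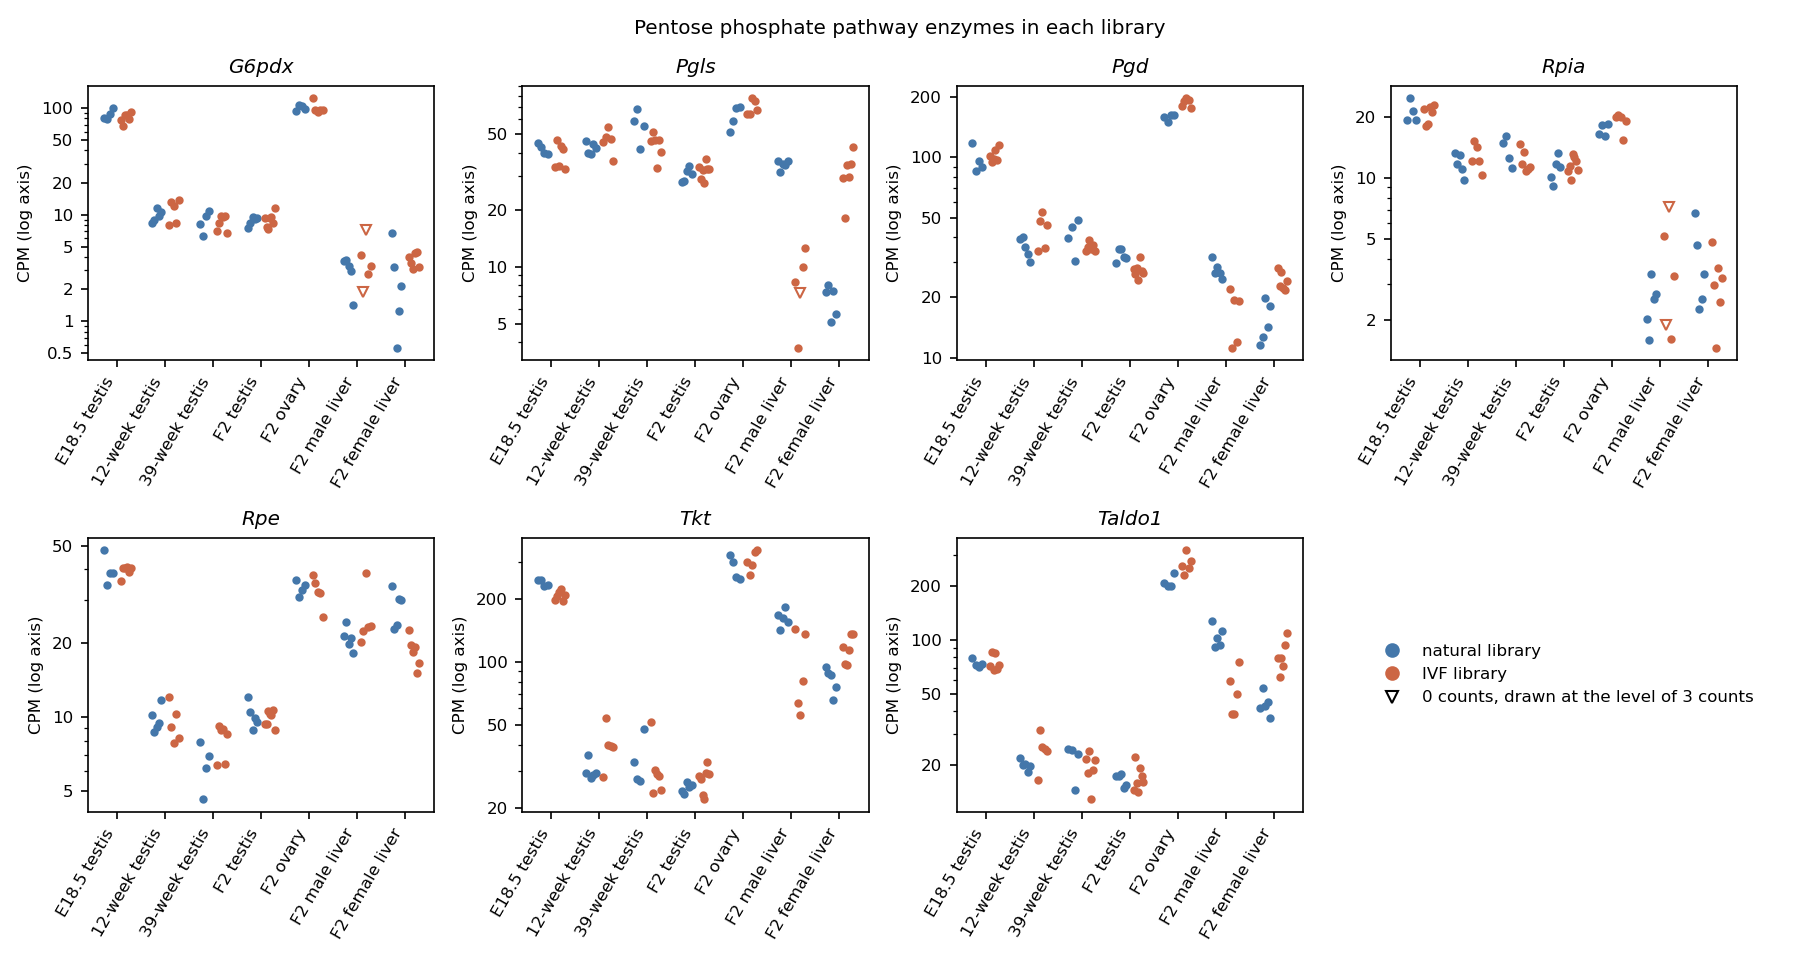
Level of each enzyme (CPM, log axis) in every library of the 7 tissues, natural in blue and IVF in orange; open triangles stand for libraries with 0 counts, drawn at the level of 3 counts. G6pdx, Tkt and Taldo1 are higher in E18.5 testis and ovary than in adult testis, and the mean of G6pdx is lowest in livers. Pgls separates natural from IVF livers in opposite ways in males and females.

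In F2 livers, the values that chose the members were those of Pgls. In natural male livers it was at 36.1, 31.5, 34.8, 34.5 and 36.0 CPM (replicates 1 to 5), and in IVF male livers at 8.27, 3.73, 0, 9.92 and 12.5 CPM. All IVF male livers were below all naturals, and IVF 3, with 0 counts, allows up to 7.23 CPM if each count is a fragment of its own (3 counts, counting error only), and more than that here, since the mates of a pair were counted separately. In natural female livers it was at 7.31, 7.96, 5.08, 7.41 and 5.62 CPM, and the 6 IVF female livers were at 29.3, 18.1, 34.4, 29.6, 35 and 43 CPM, all above all naturals. The fitted log2 difference was -1.98 (SE 0.27) in males, or 3.94-fold lower in IVF, and 2.24 (SE 0.21) in females, or 4.72-fold higher. The levels of natural males and IVF females lay close to each other (34.6 ± 1.88 CPM, n = 5, and 31.5 ± 8.25, n = 6), as were those of IVF males and natural females (6.89 ± 5.01, n = 5, and 6.68 ± 1.25, n = 5), but the tables of males and females were scaled apart.

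Pgd, which acts on the product of Pgls and makes NADPH, had the same order. It was at 31.8, 26.4, 28.3, 26.6 and 24.8 CPM in natural male livers and at 21.9, 11.2, 19.3, 12.0 and 19.2 CPM in IVF. In female livers it was at 11.6, 12.7, 19.8, 14.2 and 18.2 CPM in naturals and between 21.8 and 28.0 CPM in IVF (median of 6 libraries 23.5 CPM). The groups did not overlap in either sex, and the log2 difference was -0.72 (SE 0.20) in males and 0.66 (SE 0.15) in females.

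G6pdx, the entry enzyme, had low counts in liver, 17 to 148 in natural males and 2 to 66 in natural females. It was at 1.43 to 3.74 CPM in natural males, and IVF males 2 and 3 had 0 counts of it. In females it was at 0.565 to 6.71 CPM in naturals and 3.08 to 4.44 CPM in IVF. The groups overlapped in both sexes, with log2 differences of -0.10 (SE 0.46) and 0.50 (SE 0.40). Rpia, which also had 0 counts in IVF males 2 and 3, overlapped too, with 0.20 (SE 0.48) in males and -0.33 (SE 0.34) in females.

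Of the sugar-transfer enzymes, Taldo1 was at 127, 90.8, 103, 94.0 and 112 CPM in natural male livers and at 59.1, 38.6, 38.6, 49.7 and 75 CPM in IVF. In female livers it was at 41.8, 53.8, 42.9, 45.1 and 36.5 CPM in naturals and 62.2 to 110 CPM in IVF. The groups were apart in both sexes, with log2 differences of -0.97 (SE 0.19) and 0.91 (SE 0.15). Tkt was at 142 to 183 CPM in natural males and at 143, 63.4, 55.4, 81.2 and 135 CPM in IVF, where IVF 1 reached the range of the naturals, and the log2 difference was -0.71 (SE 0.23). In females Tkt was at 65.3 to 93.9 CPM in naturals and 96.4 to 136 CPM in IVF, without overlap, with a log2 difference of 0.51 (SE 0.14).

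Rpe, the member with the lowest GC content, had the opposite order in females. It was at 34.1, 22.9, 23.7, 30.4 and 29.9 CPM in natural female livers and at 22.7, 19.7, 18.4, 19.3, 15.1 and 16.6 CPM in IVF, a log2 difference of -0.60 (SE 0.15) without overlap. In males it was at 18.3 to 24.4 CPM in naturals and 20.3 to 38.6 CPM in IVF, with 0.18 (SE 0.18). A gene was counted as called where it passed edgeR's test (Benjamini-Hochberg value below 0.05) and differed by more than 1.5-fold. In these livers that measure only describes the size of a difference. Past it were 4 of the 7 members in males, with lower values in IVF (Pgls, Pgd, Tkt and Taldo1), where 31.1% of the 11973 genes tested were called, and 4 in females, of which 3 had higher values in IVF (Pgls, Pgd and Taldo1) and 1 lower (Rpe), where 39.4% of 12525 were called. All 7 members passed the filter on low counts in both tables, and since these contrasts chose the members nothing is read from these counts.

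The GC trend of the libraries moved with the groups in liver, and depth differed as given above. With the share of mapped reads as a covariate, 12.3% of all genes were called in males and 10.6% in females. Among libraries mapped at 75% or more, 25.4% were called in males and 1.11% in females. The share of mapped reads by group is not given here. Each library has a trend of level with the GC content of genes, and its height at the GC content of Pgls was 0.83 to 1.02 (log2) in natural male livers and -1.56 to -0.21 in IVF male livers, against -0.84 to -0.38 in natural and 0.15 to 1.04 in IVF female livers. In the gonad libraries it lay between -0.25 and 0.37. With the trend removed from each library, the log2 difference of Pgls was -0.62 (SE 0.20) in males and 0.80 (SE 0.14) in females, and its groups still did not overlap in either sex. The differences of Pgd, Tkt and Taldo1 were then -0.25, -0.22 and -0.51 in males and 0.15, 0.01 and 0.46 in females, with overlapping groups, and that of Rpe in females was 0.20.

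**Figure D2:**
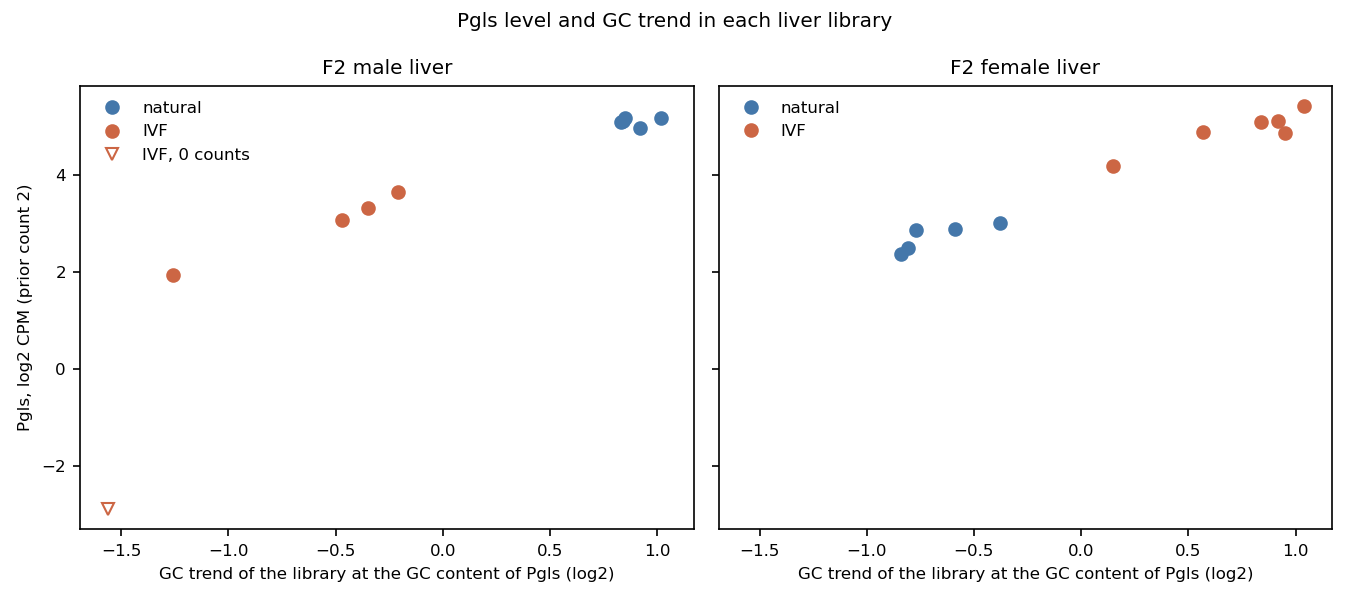
Level of Pgls (log2 CPM, prior count 2) against the GC trend of the library at the GC content of Pgls (log2) in F2 male livers (left) and F2 female livers (right), 1 point per library. The trend separates natural (0.83 to 1.02) from IVF (-1.56 to -0.21) males and natural (-0.84 to -0.38) from IVF (0.15 to 1.04) females.

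Markers of cell types moved as well. The 8 hepatocyte markers summed to 78300 to 106000 CPM in natural and 99400 to 153000 in IVF male livers, and to 176000 to 261000 in natural and 115000 to 141000 in IVF female livers, and none of these was at 0. The 5 endothelial and stromal markers summed to 98.0 to 120 CPM in natural and 135 to 199 in IVF males, and to 213 to 261 in natural and 102 to 157 in IVF females. By gene, 3 endothelial and stromal markers were higher and 2 lower in males, with Dcn alone called, and all 5 were lower in females, again with Dcn called. The 5 erythroid markers summed to 269 to 508 and 421 to 895 CPM in males and to 456 to 754 and 153 to 376 CPM in females, where Hba-a2 was at 0 in naturals. Of the 4 tested, 1 was called higher and 2 lower in males, and 2 were called lower in females. The 6 macrophage and leukocyte markers summed to 76.9 to 110 CPM in natural and 76.5 to 157 in IVF males, where all 6 were higher and Lyz2, Cd68 and Adgre1 were called, and to 59.9 to 147 in natural and 113 to 238 in IVF females, where 3 were higher and Cd74 was called. The part of GC content, depth, mapped reads and these cells in the liver differences was not tested. In tissue RNA fewer cells of a type and less RNA per cell cannot be told apart. Without the 3 natural male livers that held spermatid counts, the log2 difference of Pgls was -1.92, and those of Pgd, Tkt and Taldo1 were -0.67, -0.59 and -0.82.

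The genes whose pattern was most like that of Pgls over the 21 liver libraries, each table centred on its own mean, were Il17rc and Ptpa (Pearson r 0.991 each), R3hdm4 (0.987), Mea1 and Klhl36 (0.986 each), out of 11825 genes. Their transcripts have 57.1% to 62.0% GC. Centring leaves the difference between IVF and natural livers that chose Pgls in place, so these r describe that same contrast with the depth and GC differences above. Among the members, r with Pgls was 0.851 for Tkt, 0.840 for Taldo1, 0.737 for G6pdx, 0.621 for Rpia, 0.540 for Pgd and -0.763 for Rpe.

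Some genes near the pathway had opposite orders in the male and female tables and others had the same. Shpk, which makes sedoheptulose 7-phosphate, and H6pd, the hexose-6-phosphate dehydrogenase of the endoplasmic reticulum, had log2 differences of -1.15 and -1.14 in males and 1.14 and 1.08 in females. Gpx4, the glutathione peroxidase that reduces lipid hydroperoxides, was at -1.50 and 1.44. Of the 11 tested neighbours of the pathway, 1 was called higher and 2 lower in IVF males and 3 higher in IVF females. Of 8 tested genes of other NADPH sources, 1 was higher and 1 lower in males and 2 were higher in females, and of 13 tested genes of the glutathione and thioredoxin systems, 4 were lower in males and 3 were higher and 2 lower in females. These counts stand beside 31.1% of all genes called in males and 39.4% in females, and nothing particular to the lists is read from them. Gclc (-0.23 in males and -1.07 in females) and Txnrd3 (-0.70 and -0.44) had the same sign in the sexes, and each was called in only 1 of them. The medians of the 3 lists were -0.08, -0.20 and -0.49 in males and 0.07, 0.11 and 0.21 in females, beside -0.01 over all genes in each sex.

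In gonads, which took no part in the choice, no member was called between IVF and natural animals. EdgeR called 0 of 7 in testes at E18.5, at 12 and at 39 weeks, in F2 testes and in F2 ovaries, and all 7 were tested in each. Of all genes tested, it called 0.221%, 0.199%, 0.00996%, 0.914% and 0%, in that order. With 1 library left out these shares ran from 0.0191% to 0.732%, 0.0293% to 0.44%, 0.00482% to 0.053%, 0.513% to 1.05% and 0% to 0.0183%. At an unadjusted p under 0.05 there were 1, 3, 1, 1 and 2 members, where 17.7%, 12.9%, 10.5%, 13.9% and 10.6% of all genes had one. DESeq2 called 0 in each, where it called 0.649%, 0.348%, 0.473%, 1.57% and 0.545% of all genes. Without a fold limit DESeq2 passed Tkt at E18.5, Pgd in F2 testes and Pgd in F2 ovaries. The share of all genes that passed in that way is not given here, so nothing is read from these passes. The medians of the 7 log2 differences were -0.03, 0.17, -0.15, 0.05 and 0.13, beside medians over all genes between -0.01 and 0.01.

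Pgd had the smallest adjusted p of these, in F2 testes. It was at 29.6, 34.9, 34.8, 31.7 and 31.6 CPM in naturals and had a lowest, median and highest level of 24.5, 27.2 and 31.9 CPM in the 7 IVF males. IVF 5 lay within the natural range and the other 6 IVF males lay below it. The log2 difference was -0.25 (SE 0.07, edgeR adjusted p = 0.0848), and over the 18 alternative settings the adjusted p ran from 0.0320 to 0.266 with a difference of -0.29 to -0.22. In F2 ovaries Pgd was at 160, 151, 163 and 162 CPM in naturals and 180, 192, 197, 193 and 177 CPM in IVF, all above all naturals, with a log2 difference of 0.24 (SE 0.07, edgeR adjusted p = 0.340). Over the 15 alternatives there, the adjusted p ran from 0.0145 to 0.600. The 6 markers of steroid-making cells (Leydig list) summed to 11800 to 22400 CPM in natural and 22500 to 31200 CPM in IVF ovaries, and the 5 oocyte markers to 244 to 275 and 154 to 242 CPM, none at 0. By gene, 4 of the first list were higher and 2 lower in IVF and all 5 oocyte markers were lower. The 6 granulosa and luteal cell markers summed to 3300 to 7770 CPM in naturals and 5480 to 9940 CPM in IVF, and all 6 were higher. The Sertoli list summed to 1540 to 2160 CPM in natural and 1380 to 1780 CPM in IVF ovaries, and its 5 tested genes were all lower. Of the macrophage and leukocyte list 1 gene was higher and 5 were lower in IVF ovaries, and the 4 tested erythroid genes were all higher. In F2 testes the 6 Sertoli cell markers summed to 179 to 197 CPM in naturals and 161 to 187 CPM in IVF, with 1 higher and 5 lower. The Leydig list summed to 537 to 741 CPM in naturals and 643 to 882 CPM in IVF there, with 4 higher and 2 lower and Hsd3b1 called higher. The macrophage and leukocyte list (25.5 to 36.6 and 33.6 to 42.0 CPM) had 5 of 6 higher, and the 4 granulosa and luteal genes tested were all lower. Their part in the values of Pgd was not tested.

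Tkt at E18.5 was at 246, 246, 229 and 233 CPM in naturals and between 194 and 221 CPM in the 6 IVF males, median 207 CPM. All IVF testes lay below all naturals, with a log2 difference of -0.21 (SE 0.06, edgeR adjusted p = 0.1, range over 16 alternatives 0.0157 to 0.461). The Sertoli cell markers there summed to 2140 to 3180 CPM in naturals and 1620 to 2260 CPM in IVF, with all 6 lower. Of the Leydig cell markers 5 were higher and 1 lower, and of the macrophage and leukocyte markers 1 was higher and 5 lower. The GC trend at Pgls was 0.04 to 0.18 in naturals and -0.09 to 0.00 in IVF, and with the trend removed Tkt was at -0.13 and 3 genes in all were called, against 34. The part of these was not tested. At 12 weeks the point estimate of Tkt was in the other direction, 0.41 (SE 0.13, edgeR adjusted p = 0.192), with 29.3, 35.8, 27.7, 28.8 and 29.5 CPM in naturals and 28.0, 53.7, 40.0, 39.7 and 39.0 CPM in IVF, where IVF 1 lay within the natural range. Over 16 alternatives it ran from 0.28 to 0.52 (edgeR or DESeq2 adjusted p 0.0223 to 0.416). The GC trend at Pgls was -0.09 to 0.0 in 12-week naturals and -0.03 to 0.12 in IVF, and its part was not tested. Pgd (0.29) and Taldo1 (0.28) were also among the members with an unadjusted p under 0.05 at 12 weeks. All 6 Leydig cell markers had higher values in IVF there, with sums of 730 to 1110 CPM in naturals and 737 to 1420 CPM in IVF, and their part was not tested. At 39 weeks Pgls was the only such member, at 59.0, 67.7, 41.8 and 55.7 CPM in naturals and 33.2 to 51.6 CPM in IVF, a log2 difference of -0.34 (SE 0.15, edgeR adjusted p = 0.450). It ran from -0.47 to -0.09 over 16 alternatives (adjusted p 0.151 to 0.936), the GC trend at Pgls was 0.36, 0.37, 0.03 and -0.09 in naturals 1 to 4 and -0.25 to 0.06 in IVF, and the 5 spermatogonium and gonocyte markers summed to 330 to 444 CPM in naturals and 475 to 559 CPM in IVF, with 3 genes higher and 2 lower. The part of these was not tested. In F2 ovaries Taldo1 was the other, at 238 CPM or less in naturals (median 204 CPM, n = 4) and 230 to 318 CPM in IVF, 0.33 (SE 0.10, edgeR adjusted p = 0.377).

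For G6pdx, the log2 difference was -0.08 (SE 0.09) at E18.5, 0.17 (SE 0.16) at 12 weeks, -0.04 (SE 0.20) at 39 weeks, 0.05 (SE 0.12) in F2 testes and 0.01 (SE 0.09) in F2 ovaries. Rpia and Rpe lay between -0.17 and 0.32 in the 5 comparisons. No gene of the 3 lists of neighbouring pathways was called either, but under the alternatives Slc7a11 was called in 3 of 16 at E18.5 and in 1 of 15 in F2 ovaries, and Shpk in 1 of 14 at E18.5. The smallest adjusted p values were those of Nnt, the mitochondrial transhydrogenase, in F2 testes (0.26, edgeR adjusted p = 0.0513), Hmox1, a heme oxygenase (-0.44, 0.0579), the cystine transporter Slc7a11 (0.90, 0.0606) and Shpk (1.28, 0.0792) at E18.5.

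**Figure D3:**
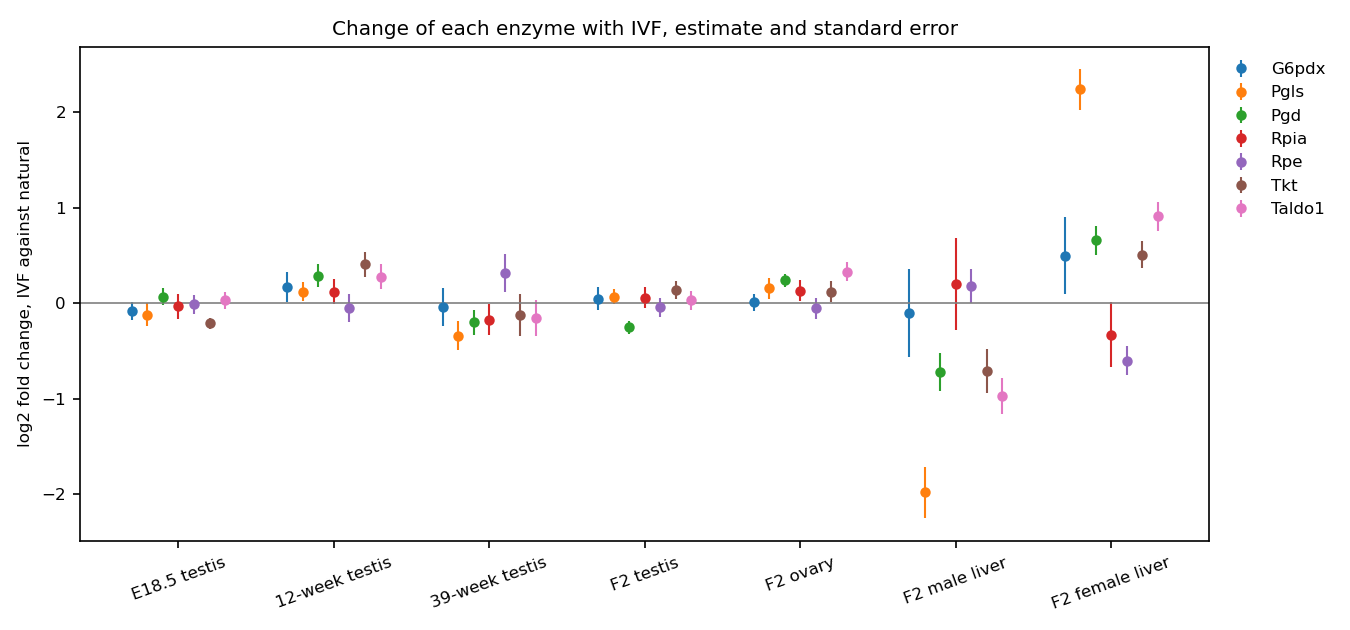
Log2 fold change of IVF against natural for each enzyme in the 7 tissues; points are edgeR estimates and bars their standard errors. In the gonads all estimates lie between -0.34 and 0.41, whereas in F2 livers Pgls is at -1.98 in males and 2.24 in females.

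Whether the change with IVF differed between ages was tested as an interaction over the 30 F1 testes. EdgeR called 0 of 7 members between E18.5 and 12 weeks, where it called 1.27% of all genes and 0 members had an unadjusted p under 0.05 (17.1% of all genes), and 0 of 7 between 12 and 39 weeks, where it called 0.0109% and 3 members had one (13.5% of all genes): Pgd (-0.48, edgeR adjusted p = 0.230), Pgls (-0.46, 0.258) and Tkt (-0.52, 0.331). DESeq2 called 0 in both, where it called 1.0% and 1.15% of all genes. The median over all genes of the first of these was -0.17, which DESeq2 size factors moved by 0.18 and removal of the GC trend by 0.21, and 232 genes were called there, against 3 under either of these settings. Without 39-week natural 3, Pgd was called at -0.60. The share of all genes called in that fit is not given here. In the comparison of 39 with 12 weeks in naturals, leaving out the same library took that share from 0.00499% to 2.16%. Nothing particular to Pgd is therefore read from its call. Of the lists, Slc7a11 was called between E18.5 and 12 weeks (-1.50, SE 0.32, edgeR adjusted p = 0.0194), and it was not with DESeq2 size factors (-1.32) or the GC trend removed (-1.06).

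The comparisons of ages and tissues use the natural libraries of the comparisons above, so the same samples enter both. Between fetal and adult testis of naturals, 5 of the 7 enzymes were called lower in the fit and kept that direction with each table scaled on its own. Of the 17009 genes tested, edgeR called 77.4%, 6068 of them lower and 7091 higher. G6pdx fell by 2.33 on the log2 scale (SE 0.13, edgeR adjusted p = 1.77e-11), from 79.9, 79.2, 87.9 and 99.9 CPM at E18.5 to 8.41, 8.85, 11.6, 9.80 and 10.6 CPM at 12 weeks. Tkt fell by 2.17 (SE 0.09, 7.15e-13), from 229 to 246 CPM to 27.7 to 35.8 CPM. Neither gene had overlapping groups. Rpe fell by 1.22 (8.16e-07), Taldo1 by 1.08 (3.70e-08) and Pgd by 0.65 (9.86e-05).

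The CPM of a table are scaled within that table, whereas the fit scales both ages together, which moved the log2 differences of the members up by about 0.8. Pgls was called higher by 0.82 in the fit (SE 0.10, edgeR adjusted p = 1.47e-06) and differed by 0.01 with each table scaled on its own, at 39.6 to 45.0 CPM at E18.5 and 39.6 to 46.1 CPM at 12 weeks, so its direction rests on the scaling. With each table on its own, G6pdx was at -3.13, Tkt at -2.98, Rpe at -2.02, Taldo1 at -1.88 and Pgd at -1.45. Rpia had a log2 difference of -0.05 (SE 0.16, edgeR adjusted p = 0.776), and of -0.86 with each table on its own. The median over the 7 members was -1.08 and that over all genes 0.15, which DESeq2 size factors moved by 0.11 and removal of the GC trend by -0.25. Under the 16 alternatives that were tested, 5 of the 6 calls held, with G6pdx at -2.55 to -2.15 and Tkt at -2.32 to -1.64. That of Pgd held in 10 of 16 (-0.79 to -0.49).

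The copies of the 2 enzymes that fell most rose. G6pd2 rose by 6.86 on the log2 scale (SE 0.39, edgeR adjusted p = 8.48e-11), from 0, 0, 0.451 and 2.00 CPM at E18.5 to 29.4 to 37.9 CPM at 12 weeks. The E18.5 group had 8 counts of G6pd2 in all, 6 of them in natural 4, and without that library the log2 difference was 8.49, against 6.39 to 6.90 without any other. Tktl2 rose by 6.25 (SE 0.25, 1.92e-12), from 0.821 to 5.71 CPM to 105 to 131 CPM, and by 6.90 without E18.5 natural 1, against 5.89 to 6.30 without any other library. Tktl1 had a log2 difference of -0.38 (SE 0.24, 0.148). Per length, G6pd2 made up 0.696% ± 1.04 of the sum of G6pdx and G6pd2 at E18.5 (SD, n = 4) and 79.5% ± 1.48 at 12 weeks (n = 5). Tktl2 made up 0.695% ± 0.478 and 70.4% ± 2.44 of the sum with Tkt. The mRNAs of G6pdx and G6pd2 share sequence, how reads that fit both were counted was not tested, and the split between them is uncertain to that extent.

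Spermatocyte and spermatid markers, 8 genes, all rose between the same groups, from 22.8 to 29.6 CPM in all at E18.5 (Tnp1 at 0) to 12700 to 14800 CPM at 12 weeks. The 6 Sertoli cell markers, which summed to 2140 to 3180 CPM at E18.5 and 179 to 192 CPM at 12 weeks, had 4 that fell and 2 that rose, and the 5 endothelial and stromal markers all fell, from 5430 to 7210 CPM to 90.7 to 117 CPM. The part of these cells in the changes of the enzymes was not tested.

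In F2 testes G6pd2 made up 84.7% ± 1.76 (n = 5) of its pair in naturals and 85.2% ± 2.32 (n = 7) in IVF, and Tktl2 71.8% ± 2.10 and 69.1% ± 3.73. At 12 weeks the shares in IVF were 75.3% ± 4.90 and 61.8% ± 5.99 (n = 5), and at 39 weeks G6pd2 was at 76.3% ± 2.38 in naturals (n = 4) and 81.4% ± 3.84 in IVF (n = 6), with Tktl2 at 59.1% ± 9.64 and 62.1% ± 10.2. The ranges of the groups overlapped at each age. In ovaries the share of G6pd2 was 0.409% ± 0.213 in naturals (n = 4).

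**Figure D4:**
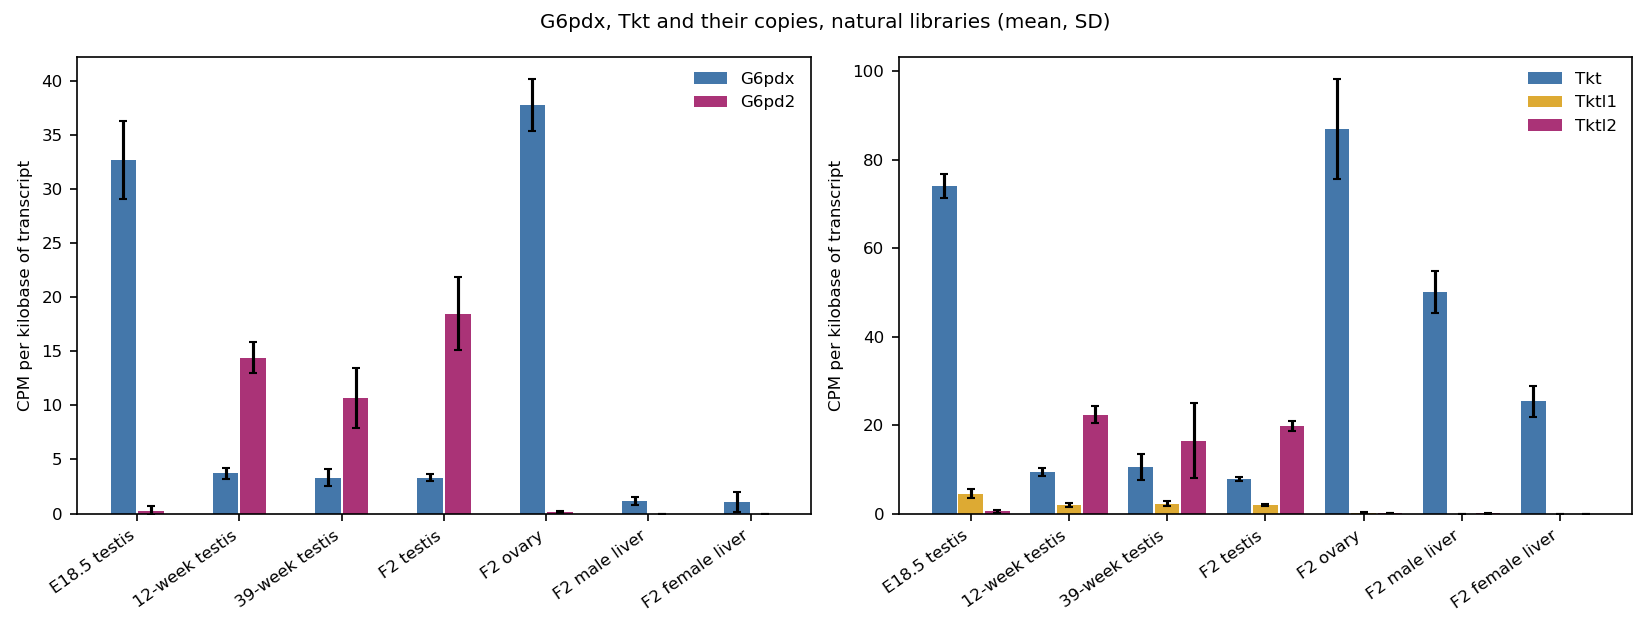
Mean level of G6pdx and its retrogene G6pd2 (left) and of Tkt, Tktl1 and Tktl2 (right) in natural libraries of the 7 tissues, in CPM per kilobase of transcript; bars are means and whiskers SD (n = 4 or 5). The parental genes lead at E18.5 and in ovary and liver, and G6pd2 and Tktl2 lead in the 3 adult testis groups.

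Genes next to the pathway split in the same comparison, beside 77.4% of all genes called, and nothing particular to the lists is read from their counts. Of 15 neighbours 6 rose and 4 fell. Prps1l1, the testis form of the enzyme that makes phosphoribosyl pyrophosphate, rose from 0 to 0.410 CPM to 170 to 239 CPM (edgeR adjusted p = 3.69e-15), whereas its relatives Prps2 and Prps1 fell by 2.09 and 0.88. Rbks (ribokinase, 3.26), Shpk (2.3) and Tigar (2.02), a phosphatase known to push glucose 6-phosphate into the pathway, also rose, and H6pd and Pgm2 fell by 0.97 and 0.74. Of 10 genes of other NADPH sources 3 rose, among them the malic enzyme Me3 (3.14), and 3 fell, among them the isocitrate dehydrogenases Idh2 (-4.48) and Idh1 (-1.27). Of 14 genes of the glutathione and thioredoxin systems 5 rose, led by Txnrd3 (5.57) and Gpx4 (4.49), and 6 fell, among them Nqo1 (-1.77) and Gsr (-1.41), the reductase that spends NADPH on glutathione. The medians of these lists were 0.17, -0.36 and -0.38 in the fit, and -0.87 (13 genes with a value), -1.06 and -1.23 with each table scaled on its own. On that scaling the called genes with a value kept their direction, but Nnt (0.06), Aldh1l1 (0.19) and Gclm (0.21), called higher in the fit, lay near 0.

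Between 12 and 39 weeks in naturals, edgeR called 0 of 7 members, where it called 0.00499% of all genes, and DESeq2 called 0, where it called 1.07%. At an unadjusted p under 0.05 there were 2 (14.4% of all genes), Rpe (-0.55, SE 0.19, edgeR adjusted p = 0.255) and Pgls (0.46, SE 0.14, 0.215). The 5 spermatogonium and gonocyte markers summed to 503 to 540 CPM at 12 weeks and 330 to 444 CPM at 39 weeks, with 2 genes higher and 3 lower. The 4 tested erythroid genes were all higher. The GC trend at Pgls was -0.09 to 0.0 at 12 weeks and -0.09 to 0.37 at 39 weeks. The part of these was not tested. Pgls ran from -0.01 (IVF in place of natural animals) to 0.59 over 16 alternatives and was called in 1 of them, without 39-week natural 3. In that fit 2.16% of all genes were called, and 2.11% were called without 39-week natural 4, so nothing particular to Pgls is read from its call.

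Set against liver, the adult testis of naturals had far less Tkt and Taldo1. The labels do not say whether gonads and livers came from the same F2 animals. The fits here and for ovaries took them as separate animals, so a possible pairing was not used. In F2 males of the same age, Taldo1 was at 15.0 to 17.9 CPM in testes and 90.8 to 127 CPM in livers, a log2 difference of -3.68 (SE 0.10, edgeR adjusted p = 2.45e-13), and Tkt at 23.2 to 26.6 and 142 to 183 CPM, -3.72 (SE 0.09, 6.55e-14). Rpe was lower in testes (-2.07, 5.26e-10), and Rpia was higher (1.18, 3.68e-05). Pgd was called lower in the fit (-0.79, 7.74e-07), but its CPM were higher, at 29.6 to 34.9 in testes and 24.8 to 31.8 in livers, a difference of 0.24 with each table scaled on its own, so its direction rests on the scaling. On that scaling Tkt was at -2.69, Taldo1 at -2.65, Rpe at -1.04 and Rpia at 2.17. G6pdx was not called in the fit (0.49, SE 0.20, 0.0315), was called in 6 of 18 alternatives and was at 1.55 with each table on its own. Of all genes, 86.7% of 20555 were called. The level of Pgls in these livers was among the values that chose the members, so its log2 difference of -1.20 is given without a test, and it ran from -3.01 to 1.22 over the alternatives, with -0.18 where each table was scaled on its own. The median over all genes was 1.25, and DESeq2 size factors moved it by 0.36 and removal of the GC trend by -1.04. Under the 18 tested alternatives Tkt, Taldo1 and Rpe were lower in testes in each, Rpia was at 0.15 to 1.75, and G6pdx at -0.46 to 1.06. With IVF animals in place of naturals, Pgls was higher in testes (1.22) and Pgd was at 0.10. Without the natural livers that held spermatid counts Pgd was at -0.55 and not called.

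G6pd2 and Tktl1 had 0 counts in the 5 natural male livers, of 102026414 counts in all. With 3 counts over the group as the limit, and each count taken as a fragment of its own, G6pd2 was at least 1480-fold higher in F2 testes (43.5 CPM over the group, here without TMM) and Tktl1 at least 163-fold higher. Since the mates of a pair were counted separately, the limit in liver is higher and both bounds are lower than these values. Tktl2 had 26 counts there, all in the 3 livers that also held spermatid counts (2, 6 and 18 counts).

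Ovaries were compared with female livers in the same way. Against female livers of naturals, G6pdx was higher in ovaries by 3.71 on the log2 scale (SE 0.36, edgeR adjusted p = 1.12e-06), at 92.9, 107, 104 and 97.3 CPM against 6.71, 3.22, 0.565, 1.26 and 2.13 CPM. Pgd was higher by 1.81 (SE 0.16, 4.24e-07). Both held their direction and their call in each alternative that could be fitted, and were at 5.57 and 3.40 with each table scaled on its own. Rpe was called lower in the fit (-1.30, 5.83e-06), but its CPM were 30.8 to 36.2 in ovaries and 22.9 to 34.1 in livers, a difference of 0.27 with each table on its own, so its direction rests on the scaling. Taldo1 (0.71, 3.09e-04) was also called higher, but was at -0.15 with the GC trend removed and at 0.13, not called, with IVF animals. Pgls, given without a test for the same reason as above, was at 1.66, at -1.04 with the GC trend removed and at -0.42 with IVF animals. Rpia (0.62, 0.0667) and Tkt (0.22, 0.172) were not called in the fit, but Rpia was in 4 of 15 alternatives (-0.04 to 1.09) and Tkt in 2 of 16 (-0.68 to 0.63). With each table scaled on its own Rpia was at 2.25, Tkt at 1.78, Taldo1 at 2.27 and Pgls at 3.22, so the size of these differences rests on the scaling. Of all genes, 72.1% of 16219 were called, and the median over all genes was 0.40. DESeq2 size factors moved that by 0.18 and removal of the GC trend by -0.55.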

How the data were processed

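Poly(A) RNA was sequenced from 72 libraries, 1 per animal and tissue, prepared with a stranded mRNA kit. Per the submitters' processing notes, reads were handled with Trimmomatic 0.32, STAR 2.3.0e and featureCounts 1.5.0 on mm10, and the authors deposited raw counts per gene in 7 tables, 1 per tissue and age. All columns were mapped to samples. Groups came from the labels, which give 5 natural and 6 IVF female livers. Between 60.0% and 94.3% of the counts from 1 to 20 in a library were even, so the mates of a pair were counted separately and a count is less than 1 independent fragment. Intervals and limits cover counting error only. Total counts ran from 543745 to 90441392 per library. Among 337 pairs of libraries of the same table, 0 were identical.

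Counts were scaled by TMM and tested with edgeR 4.0.16 (R 4.3.3; quasi-likelihood, robust; genes kept by filterByExpr by group), with Benjamini-Hochberg adjustment over all genes tested. A call needed an adjusted p under 0.05 and over 1.5-fold. All 7 members passed the filter in every table. Tables were fitted 1 at a time for IVF against natural and joined for ages, tissues and interactions. CPM came from edgeR, log2 CPM with a prior count of 2. DESeq2 1.42.0, its size factors, other count filters (none, or 10 counts in every library), removal of the GC trend (lowess, span 0.3, GC of the principal GENCODE M21 transcript), the replicate number as a block, each library left out, the share of mapped reads as a covariate or limit (60% and 75%) and IVF in place of natural libraries were the alternatives. Leaving out male livers with spermatid counts, and scaling each table on its own for ages and tissues (difference of mean log2 CPM, no test), were added after seeing the data. Scripts were tested on simulated data. The members and all gene lists were chosen with earlier results of these data known. The genes named are the members, their copies, and genes of the lists that were called or had the smallest adjusted p. Promoters are from RefSeq on GRCm38.p6, and all 7 members and the 3 copies were matched there. Figures were drawn with matplotlib 3.10.9.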

Additional observations from a re-analysis of the deposited data

Results flagged for a closer look

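Of 98 sets of values checked (7 enzymes in 14 groups of 4 to 7 libraries), 8 held a library far from the others, against about 1 in 20 by chance. In 12-week testes Tkt was at 35.8 CPM in natural 2, with a mean of 28.8 CPM in the others. In 39-week testes Tkt was at 51.3 CPM in IVF 1 (others 27.2 CPM) and Taldo1 at 14.6 CPM in natural 3 (others 24.0 CPM). In ovaries G6pdx was at 123 CPM in IVF 1 (others 95.3 CPM) and Rpia at 15.5 CPM in IVF 4 (others 19.9 CPM). In male livers G6pdx was at 1.43 CPM in natural 5 (others 3.41 CPM). The shallowest library of all, male liver IVF 3, had Pgls at 0 (others 8.61 CPM) and Rpe at 38.6 CPM (others 22.3 CPM).

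For 3 members the difference between IVF and natural livers had opposite signs in the sexes and no overlap between groups in either sex. The other members also had opposite signs, but their groups overlapped in males. With the GC trend removed, the groups of Pgd and Taldo1 overlapped in both sexes, and Pgls was at -0.62 in males and 0.80 in females. The log2 difference in females minus that in males was 4.22 for Pgls, 1.88 for Taldo1 and 1.38 for Pgd. These differences were not tested, since Pgls was chosen for this pattern. The change of Slc7a11 with IVF differed between 12 weeks and E18.5 by -1.50 (log2), the only gene of the neighbouring lists called for that interaction by edgeR (adjusted p = 0.0194). EdgeR called 1.27% of all genes there. Slc7a11 was not called with DESeq2 size factors or with the GC trend removed.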

How the results depend on the processing

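In liver the counts describe contrasts that chose the members, and nothing is read from them. The number of members past the threshold in male livers, 4, was 2 with 10 counts in every library (where Pgls could not be tested), 2 with mapped share as covariate, 1 with the GC trend removed, 1 without the spermatid-count libraries (35.4%, 12.3%, 17.0% and 7.05% of all genes called, against 31.1%), and 2 to 4 with each library left out (2 without IVF 4). In female livers the count of 4 was 1 with the GC trend removed, 1 with the covariate and 0 among libraries mapped at 75% or more (18.1%, 10.6% and 1.11% of all genes, against 39.4%), and Pgls there was 0.80 with the GC trend removed. Its left-out ranges were -2.18 to -1.84 in males and 2.13 to 2.36 in females. Of the values past the threshold in the main fit, those reversed were Rpe in female livers (0.20, GC removed), Pgls (1.22) and Pgd (0.10) between testis and liver in IVF libraries, and between ovary and liver Pgls (-1.04 with GC removed, -0.42 in IVF libraries) and Taldo1 (-0.15, GC removed). Values not past it also changed sign, among them Tkt and Rpia between ovary and liver and G6pdx between testis and liver, with the ranges given above. With each table scaled on its own, added after seeing the data, Pgd between testis and liver (0.24) and Rpe between ovary and liver (0.27) reversed. With each library left out, the counts of called members were 0 to 1 between 39 and 12 weeks and 0 to 1 for that interaction, in both 1 only without 39-week natural 3. Without that library 2.16% of all genes were called between 39 and 12 weeks, against 0.00499% with it. The causes were not tested. Natural and IVF libraries with the same replicate number in a table had r of -0.23 to 0.30 over 32 pairs, 3 of them over 0.1. Libraries with the same number in different tissues were not compared. With the replicate block, 3 members were called in female livers (34.2% of all genes) and 5 between 12 weeks and E18.5 (75.5% of all genes), where Pgd was at -0.58. For single genes, 192 values were the same, 13 lost the call, 24 moved and 8 reversed, leaving out libraries and Pgls between IVF and natural livers aside. Tested values were the same where direction and call held. Differences between IVF and natural livers, and values with each table scaled on its own, were the same within 1 SD of the main value. Depth limits G6pdx and Rpia in the shallow livers.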
